A study of Mus musculus with 6 samples.

Results

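The genes described here encode the molecules through which tissue cells and antigen-presenting cells restrain or assist T cells. They were taken by name from the deposited count table and are 10 of its 57010 genes, namely Cd274, Pdcd1lg2, Cd80, Cd86, Icosl, Cd276, Havcr2, Vsir, Cd200 and Ido1. The 6 RNA-seq libraries came from primary neonatal mouse cardiomyocytes (NMCMs), isolated from newborn C57BL/6 mice and kept under hypoxia (HO). Of these libraries, 3 received vehicle (HO + Vehicle, V1 to V3) and 3 received β-sitosterol, a plant sterol (HO + β-SITO, T4 to T6), so that hypoxia was shared by both groups and no normoxic library was analysed here. The NMCMs had been parted from cardiac fibroblasts by their slower adhesion to plastic, and other cells of the heart can remain after this step. The dose given to these cultures and the hours under hypoxia were not given in the sources used here. Nothing in the labels says whether the 3 libraries of a group were separate cultures, so the p-values measure the spread between these libraries only. The names of the T4 to T6 libraries end in a letter that those of V1 to V3 lack, and a separate preparation cannot be told apart from the treatment.

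T cells that meet their antigen for the first time respond fully only together with a second signal. CD80 and CD86 on antigen-presenting cells give this signal through CD28 and withdraw it through CTLA-4, and ICOSL supports activated T cells through ICOS. PD-L1 (Cd274) and PD-L2 (Pdcd1lg2) bind PD-1 and dampen the response, and interferon-γ is the classical inducer of PD-L1 on tissue cells. VISTA (Vsir) and TIM-3 (Havcr2) are inhibitory molecules of myeloid and T cells, CD200 restrains myeloid cells through its receptor CD200R1, and IDO1 degrades tryptophan, which T cells need.

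The libraries held between 16694734 and 18460522 counts, and 14799 genes passed the filter on low counts. Of 10 cardiomyocyte markers all were tested, and 3 (Myh7, Myl7 and Nppa) were called higher and none lower in the HO + β-SITO group. Of all tested genes, 12.8% were called higher and 10.1% lower. Tnnt2 fell (log2 fold change -0.47) and Myh6 rose (0.53) by less than 2-fold, and the other 5 did not pass. The summed level of the 10 was 6097 to 7067 CPM (counts scaled to the TMM-normalized library size) in V1 to V3. T4 at 5523 CPM lay below these and T5 and T6 at 9283 and 9430 CPM above. T4 thus stood apart from the other libraries of its group, and without it the 8 tested members kept their direction and, except Cd80, their call. The 8 fibroblast markers, collagen genes among them, summed to 29833 to 31113 CPM against 44413 to 45501 CPM, above the summed cardiomyocyte markers in every library. Sums of different genes do not give the share of each cell type. Col1a1, Col1a2 and Col3a1 held most of the fibroblast sum in both groups, and rose by less than 2-fold, as did Tcf21 and Lum. Dcn (log2 fold change -0.52) and Postn (-0.22) fell by less than 2-fold, and Pdgfra (0.13) did not pass. Of 12 macrophage markers, 7 were called higher and 2 lower, and their summed level was 1339.6 to 1470.2 CPM in V1 to V3 and 2729 to 3346 CPM in T4 to T6. Csf1r, Cd68, C1qa, C1qb, Mrc1, Lyz2 and Tyrobp were the 7, and Cd14 and Fcgr1 were the 2. Itgam rose by less than 2-fold (log2 fold change 0.47). Adgre1 (-0.06, adjusted p = 0.471) and the pan-leukocyte gene Ptprc (-0.03, adjusted p = 0.813) did not pass edgeR's quasi-likelihood test. All 8 endothelial markers were called higher, from a summed 204 to 234 CPM to 837 to 867 CPM. The T-cell CD3 genes Cd3d, Cd3e and Cd3g had 0 counts in every library, which allows at most 0.154 to 0.189 CPM per library (3 counts, counting error only). Several members are known from macrophages or endothelium, and the part of these marker changes in the results below was not tested. In bulk RNA, fewer cells of a type and less RNA per cell cannot be told apart.

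β-SITO was accompanied by a large loss of the transcripts for PD-L1 and ICOSL and a smaller loss of those for CD86 and CD80. Cd274 was 59.1-fold lower, Icosl 10.7-fold, Cd86 3.43-fold and Cd80 2.005-fold in the HO + β-SITO group. In the other direction, Havcr2 was 7.76-fold and Vsir 3.75-fold higher. Cd200 fell and Cd276 rose by less than 2-fold. Pdcd1lg2 and Ido1 were close to undetected in all libraries and were not tested.

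A gene was called when edgeR's quasi-likelihood test gave an adjusted p under 0.05, over all genes tested, with a change of more than 2-fold. By this rule 4 of the 8 tested members were called lower, where 10.1% of all tested genes were, and 2 were called higher, where 12.8% were. The members were chosen with earlier results of these data known, so this is no independent comparison. The count of 4 includes Cd80 at the cutoff and was 3 under 9 of the alternative settings. Cd200 was among the 33.8% of tested genes that were lower, and Cd276 among the 33.0% that were higher, at an adjusted p under 0.05 with any fold. For each of the 8, all libraries of 1 group lay above all of the other, which was also so for 70.5% of all tested genes. Each of the 8 held at least 11 counts in every library. The median log2 fold change of the 8 was -0.81, and that of all tested genes was -0.01.

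**Figure D1:**
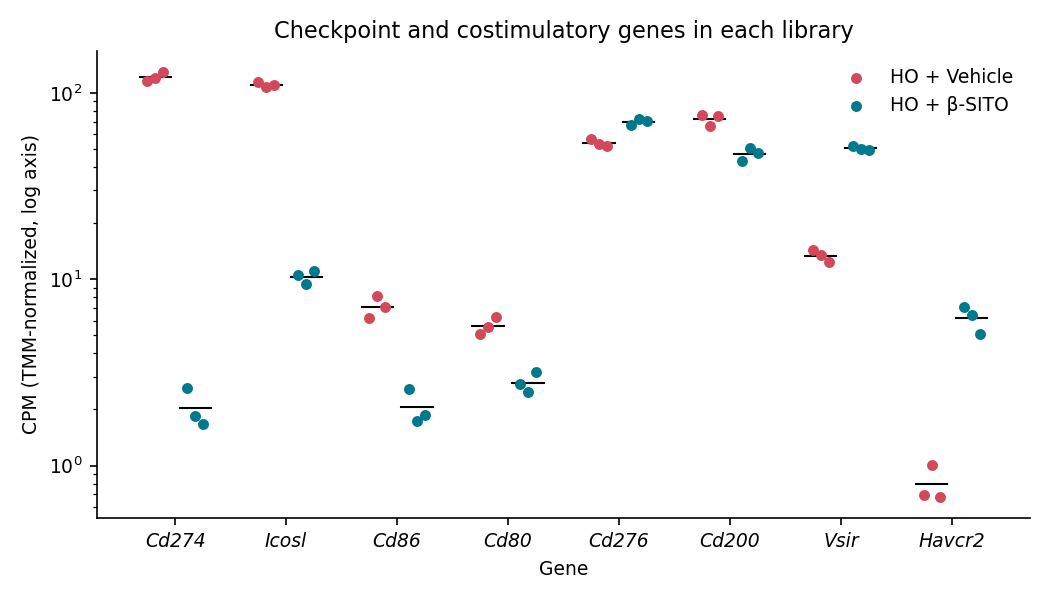
TMM-normalized CPM (log axis) of the 8 tested members, with a point for each library and a line at the group mean of 3 libraries. The groups are apart for every gene, with Cd274 falling from between 115.9 and 129.4 CPM to between 1.67 and 2.62 CPM and Havcr2 rising from at most 1.003 CPM to at least 5.10 CPM.

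The PD-1 ligands came first. Cd274 had 115.9, 119.9 and 129.4 CPM in V1, V2 and V3, and 2.62, 1.85 and 1.67 CPM in T4, T5 and T6. Every HO + β-SITO library thus lay far below every HO + Vehicle library, and these levels rested on 1835 to 2088 counts against 32 to 51 counts. The log2 fold change was -5.88 with a standard error of 0.11 (adjusted p = 7.99e-16, edgeR's quasi-likelihood test), and 0.953% of the tested genes had a lower value. With each library left out in turn, it stayed between -6.11 and -5.74. Pdcd1lg2, the gene for the other PD-1 ligand, held 4, 2 and 0 counts in V1, V2 and V3 and 0, 1 and 0 counts in T4, T5 and T6. It was therefore at or near the detection floor in both groups, and no fold is given.

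In the deposited table, with coordinates on GRCm39, Cd274 lies on chromosome 19 from 29344855 to 29365495 on the plus strand, and Pdcd1lg2 starts 22823 bp after its end. Within 200 kb of Cd274 there were 6 tested genes, of which 3 were called lower and none higher, beside 10.1% and 12.8% of all tested genes. They were Jak2, a kinase of the interferon-γ receptor (log2 fold change -3.47), and the long noncoding RNAs Gm36043 (-4.46) and A930007I19Rik (-1.19). Plgrkt, Insl6 and Ric1 lay between -0.31 and 0.24. Gm36043 lies inside Cd274 on the other strand and held 14 to 31 counts in V1 to V3 and 0 to 2 in T4 to T6. A930007I19Rik overlaps Pdcd1lg2 on the other strand and held 12 to 20 counts in V1 to V3 and 5 to 10 in T4 to T6. Both Gm36043 and A930007I19Rik passed the filter through the HO + Vehicle libraries alone. The count of lower neighbours is therefore no independent comparison with all tested genes. Whether reads were counted by strand was not given in the sources used here, so reads of these overlapping genes may not have been separated.

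The promoters of the members with the largest changes, and of Pdcd1lg2 as the neighbour of Cd274, are printed from RefSeq on GRCm38.p6, with 250 bases before and 50 bases after the start of the gene, 5′ to 3′ on the strand of the gene. They are chr19:29367188-29367487 (plus strand) for Cd274, chr19:29410669-29410968 (plus) for Pdcd1lg2, chr10:78069118-78069417 (plus) for Icosl, chr10:60346601-60346900 (plus) for Vsir and chr11:46454681-46454980 (plus) for Havcr2. Capitals mark matches, on either strand, to the core recognised by interferon regulatory factors (AANNGAAA) or to the NF-κB consensus.
Cd274: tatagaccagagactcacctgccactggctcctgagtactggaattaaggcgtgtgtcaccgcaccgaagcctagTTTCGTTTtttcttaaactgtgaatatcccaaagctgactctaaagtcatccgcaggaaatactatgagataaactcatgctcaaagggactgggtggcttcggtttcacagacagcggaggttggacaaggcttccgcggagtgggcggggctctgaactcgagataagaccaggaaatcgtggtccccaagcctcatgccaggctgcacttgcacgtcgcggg
Pdcd1lg2: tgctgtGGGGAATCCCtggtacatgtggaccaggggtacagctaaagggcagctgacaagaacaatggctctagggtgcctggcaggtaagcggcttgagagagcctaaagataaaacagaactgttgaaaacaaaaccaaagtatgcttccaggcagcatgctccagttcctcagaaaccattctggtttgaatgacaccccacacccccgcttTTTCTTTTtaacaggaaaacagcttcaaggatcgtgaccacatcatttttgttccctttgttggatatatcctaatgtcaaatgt
Icosl: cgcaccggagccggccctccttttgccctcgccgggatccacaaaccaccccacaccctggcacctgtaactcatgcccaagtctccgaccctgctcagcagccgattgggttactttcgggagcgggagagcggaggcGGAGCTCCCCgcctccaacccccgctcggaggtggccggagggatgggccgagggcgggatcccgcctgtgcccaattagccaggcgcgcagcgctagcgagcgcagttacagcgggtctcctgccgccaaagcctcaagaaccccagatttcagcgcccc
Vsir: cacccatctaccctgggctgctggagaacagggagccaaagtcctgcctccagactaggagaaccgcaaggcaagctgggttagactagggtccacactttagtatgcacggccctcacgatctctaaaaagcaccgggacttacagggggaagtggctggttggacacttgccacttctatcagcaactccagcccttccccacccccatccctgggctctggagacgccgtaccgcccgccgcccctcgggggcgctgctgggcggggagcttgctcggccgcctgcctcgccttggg
Havcr2: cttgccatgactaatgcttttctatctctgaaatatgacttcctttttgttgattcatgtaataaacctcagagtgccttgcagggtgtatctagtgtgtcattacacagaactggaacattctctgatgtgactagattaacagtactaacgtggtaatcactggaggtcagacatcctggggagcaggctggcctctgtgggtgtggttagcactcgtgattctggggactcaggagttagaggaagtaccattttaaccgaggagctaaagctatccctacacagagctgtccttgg

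Of the 10 members, 8 matched a promoter in the RefSeq table, and 4 of these held the AANNGAAA core, namely Cd274, Pdcd1lg2, Cd80 and Cd200, against 23.9% of all 32851 promoters of this length. The NF-κB consensus matched in Pdcd1lg2 and Icosl, against 8.46% of promoters. The longer interferon element GAAANNGAAA, in which the core can lie, and the GAS element TTCNNNGAA matched in none of the 8, against 3.44% and 8.30% of all promoters. These matches describe letters in a short window. Cd274, the member with the largest decrease, and Pdcd1lg2, with almost no counts in any library, both hold the core, which Icosl, with the next largest decrease, lacks.

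The CD28 and CTLA-4 ligands lie on chromosome 16 and both had low levels. Cd86 had 6.19, 8.09 and 7.07 CPM in V1, V2 and V3, and 2.57, 1.74 and 1.87 CPM in T4, T5 and T6. All HO + β-SITO libraries were below all HO + Vehicle libraries, with a log2 fold change of -1.78 and a 95% interval from -2.17 to -1.38 (adjusted p = 5.02e-07, edgeR's quasi-likelihood test). Cd80 had 5.05, 5.52 and 6.26 CPM against 2.72, 2.47 and 3.18 CPM in the same order of libraries. The groups were again apart, and the log2 fold change was -1.003 with an interval from -1.36 to -0.65 (adjusted p = 7.95e-05). This value lies at the 2-fold cutoff itself, and the call for Cd80 was lost without V3 (log2 fold change -0.89), without T4 (-0.98), without T5 (-0.90) and under 7 other settings, while its adjusted p stayed under 0.05 in each of these except the test against a 2-fold change.

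Icosl, which encodes the ligand of ICOS and lies on chromosome 10 from 77905136 to 77919747, had the next largest decrease after Cd274. It had 113.7, 107.5 and 110.6 CPM in V1, V2 and V3, and 10.5, 9.39 and 11.1 CPM in T4, T5 and T6. The spread within each group was small beside this difference, with a log2 fold change of -3.42 and a standard error of 0.08 (adjusted p = 4.06e-15, edgeR's quasi-likelihood test). Leaving out single libraries moved it only between -3.46 and -3.32.

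Cd276 encodes B7-H3, a broadly expressed B7 family protein whose receptor on T cells is not settled, and it went the other way from the B7 ligands above. It had 56.7, 53.2 and 51.8 CPM in V1, V2 and V3, and 67.3, 72.2 and 70.4 CPM in T4, T5 and T6. The libraries did not overlap, and the log2 fold change of 0.38, with an interval from 0.24 to 0.51, stayed short of 2-fold (adjusted p = 8.32e-05 by edgeR's quasi-likelihood test). VISTA, described next, is also counted in the B7 family, and its gene rose.

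**Figure D2:**
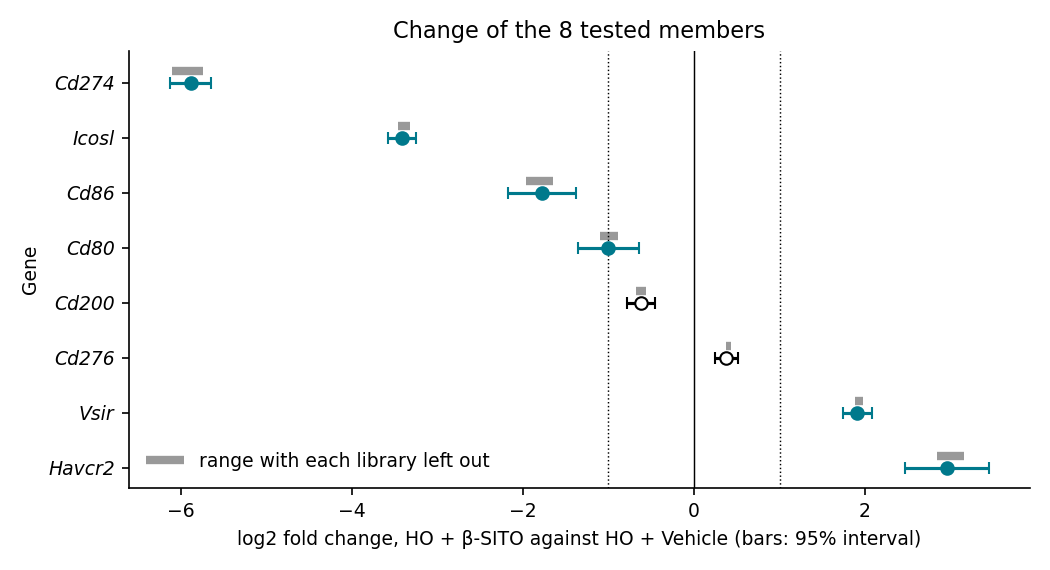
log2 fold change of the 8 tested members, HO + β-SITO against HO + Vehicle, with 95% intervals; filled points were called, open points were under 2-fold, dotted lines mark a 2-fold change and grey bars span the values with each library left out. Cd274 lies lowest at -5.88, Cd80 on the 2-fold line at -1.003 and Havcr2 highest at 2.96.

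Vsir, which encodes VISTA, lies on chromosome 10 from 60182630 to 60208463. It had 14.3, 13.5 and 12.4 CPM in V1, V2 and V3, and 52.0, 49.9 and 49.2 CPM in T4, T5 and T6. All HO + β-SITO libraries were therefore well above all HO + Vehicle libraries, with a log2 fold change of 1.91 and a standard error of 0.08 (adjusted p = 7.60e-12, edgeR's quasi-likelihood test). The gene Cdh23 spans Vsir on the opposite strand, and it held 25 to 30 counts in V1 to V3 and 2 to 11 in T4 to T6, against 200 to 226 and 887 to 1011 counts of Vsir.

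Havcr2, which encodes TIM-3 and lies on chromosome 11 from 46345762 to 46372082, rose from a very low level. It held 11, 16 and 11 counts in V1, V2 and V3 and 138, 114 and 98 counts in T4, T5 and T6, which came to 0.695, 1.003 and 0.682 CPM against 7.09, 6.41 and 5.10 CPM. The increase was far larger than the spread between libraries (log2 fold change 2.96, standard error 0.23; adjusted p = 1.87e-08, edgeR's quasi-likelihood test). It was between 2.85 and 3.16 with each library left out. Lgals9, which encodes galectin-9, a ligand of TIM-3, went in the other direction, from 797 to 873 CPM to 92.0 to 100.4 CPM (log2 fold change -3.11, adjusted p = 2.71e-15). Ceacam1, another reported TIM-3 partner, rose from 0.496 to 0.878 CPM to 2.97 to 3.75 CPM (log2 fold change 2.27, adjusted p = 1.77e-06), and passed the filter through the HO + β-SITO libraries alone.

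Cd200 had 76.0, 66.3 and 74.9 CPM in V1, V2 and V3, and 43.3, 50.7 and 47.4 CPM in T4, T5 and T6. It fell by 0.62 on the log2 scale with a standard error of 0.08, less than 2-fold (adjusted p = 2.99e-06 by edgeR's quasi-likelihood test), and the groups did not overlap. Its receptor gene Cd200r1, a gene of myeloid cells, had 1.77, 1.76 and 1.92 CPM against 11.5, 9.11 and 8.38 CPM, which gave a log2 fold change of 2.41 (adjusted p of 8.61e-09 by edgeR). The ligand was thus lower and the receptor higher in every HO + β-SITO library.

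Ido1, on chromosome 8, held 5, 3 and 4 counts in V1, V2 and V3 and 0, 1 and 1 counts in T4, T5 and T6. Over the groups these sum to 12 against 2 counts, a ratio of 7.07 after scaling to the library sizes, with an exact 95% interval from 1.57 to 65.0 that covers counting error only. It did not pass the filter. With no filter on low counts, its log2 fold change was -2.59 (adjusted p = 0.0415, edgeR's quasi-likelihood test), and that of Pdcd1lg2 was -2.41 (adjusted p = 0.194). Ido2, the neighbouring paralog of Ido1, held 49, 42 and 53 counts against 9, 1 and 3 counts and was called lower, at -3.67 on the log2 scale, having passed the filter through the HO + Vehicle libraries alone.

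To compare levels between genes, CPM were divided by the exon length of each gene in GENCODE vM21, giving CPM per kb. In the HO + Vehicle group the order of the means, from the top, was Cd274 (33.6 ± 1.92), Icosl (23.9 ± 0.669), Cd200 (21.8 ± 1.61), Cd276 (14.7 ± 0.700), Vsir (2.67 ± 0.189), Cd86 (1.94 ± 0.259), Cd80 (1.51 ± 0.164) and Havcr2 (0.292 ± 0.0668; SD, n = 3), followed by Ido1 and Pdcd1lg2. Neighbours in this order overlapped between libraries only for Ido1 and Pdcd1lg2. In the HO + β-SITO group Cd276 (19.1 ± 0.678) led, followed by Cd200 (14.2 ± 1.12), Vsir (10.04 ± 0.288), Havcr2 (2.28 ± 0.372), Icosl (2.24 ± 0.188), Cd80 (0.754 ± 0.0961), Cd274 (0.565 ± 0.140) and Cd86 (0.563 ± 0.121; SD, n = 3). Here Havcr2 could not be told from Icosl beyond the spread between libraries, nor Cd80 from Cd274, nor Cd274 from Cd86, nor Ido1 from Pdcd1lg2. Cd274 had thus gone from rank 1 to rank 7 and Cd276 from rank 4 to rank 1.

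Counted over the 10 members together, CPM fell from between 375 and 393 in V1 to V3 to between 188 and 195 in T4 to T6. Cd274 and Icosl made up 55.8%, 57.6% and 58.0% of the summed CPM per kb in V1, V2 and V3, and 6.15%, 4.98% and 5.78% in T4, T5 and T6. Cd276, Cd200, Vsir and Havcr2 together made up 38.3% to 40.9% with vehicle and 90.9% to 92.7% with β-SITO. A share also rises when the other members fall. Mean CPM per kb rose for Cd276 (14.7 to 19.1), Vsir (2.67 to 10.04) and Havcr2 (0.292 to 2.28) and fell for Cd200 (21.8 to 14.2). The share of Cd80 and Cd86 was small in both groups, at 3.01% to 3.78% against 2.24% to 2.94%.

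**Figure D3:**
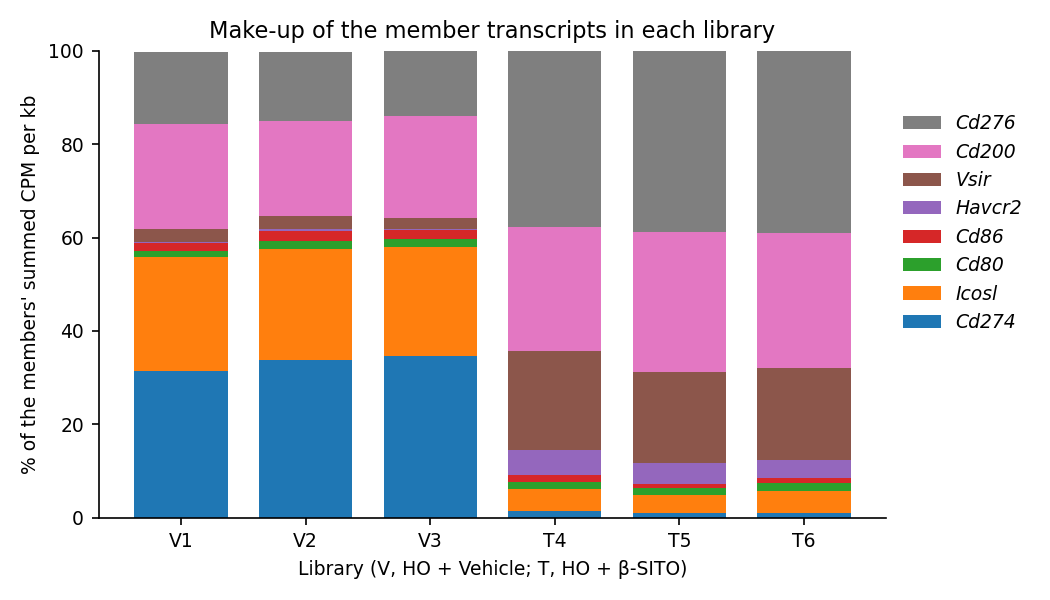
Share of each member in the members' summed CPM per kb, as a stacked bar from 0 to 100% for each library; the small remainder, Pdcd1lg2 and Ido1, is left out. Cd274 and Icosl at the foot of the bars take 55.8% to 58.0% in V1 to V3 and 4.98% to 6.15% in T4 to T6.

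Receptors and binding partners of the members were listed next, with 11 genes of which 7 were tested. Cd28, Cd200r1 and Ceacam1 were called higher, Lgals9 was called lower, and Hmgb1, Selplg and Rgmb rose by less than 2-fold. Cd28, the activating receptor for CD80 and CD86, held 1, 8 and 6 counts in V1, V2 and V3 and 155, 76 and 136 counts in T4, T5 and T6 (log2 fold change 4.34; adjusted p = 7.25e-08, edgeR's quasi-likelihood test). It passed the filter through the HO + β-SITO libraries alone, and the Cd3 genes were at 0 in the same libraries. The receptors of PD-L1, of CD80 and CD86 on the inhibitory side, and of ICOSL were nearly absent, with at most 5 counts of Pdcd1, 1 of Ctla4 and 1 of Icos in any library.

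The next list held 16 other costimulatory and coinhibitory molecules, mostly ligands but with the receptors Cd40 and Tnfrsf14. Of these 16, 14 were tested, 7 were called lower and 2 higher, and the median of their log2 fold changes was -0.995. The largest decreases were those of Cd40, the receptor by which T-cell help licenses antigen-presenting cells (-5.17), and of Icam1, an adhesion ligand of T cells (-4.74). Tnfsf4 (OX40 ligand), Tnfsf9, Tnfsf18, Tnfrsf14 and the anti-phagocytic signal Cd47 (-2.27) were the other 5. Lgals3 (1.57) and Vtcn1 (2.33), which encodes the B7 family protein B7-H4, were called higher, and Vtcn1 held 0 to 5 counts against 12 to 18 counts. Vtcn1 passed the filter through the HO + β-SITO libraries alone and Tnfsf4 through the HO + Vehicle libraries alone. The poliovirus receptor family ligands Pvr (-0.60) and Nectin2 (-0.58) fell by less than 2-fold, and Nectin3 had a log2 fold change of 0.01 (adjusted p = 0.957).

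Of 17 genes that act upstream of Cd274, most of them of interferon and NF-κB signalling and with Hif1a and Myc added, 15 were tested, 7 were called lower and none higher, and the other 8 fell by less than 2-fold. Irf1, a transcription factor of the interferon-γ response, had a log2 fold change of -3.51, and the receptor genes Ifngr1 (-0.48) and Ifngr2 (-0.79) fell by less than 2-fold. Ifng had 0 counts in every library and Ifnb1 at most 1. On the tryptophan and kynurenine list, 8 of 15 genes were tested and 2 were called lower, Ido2 and the tryptophanyl-tRNA synthetase gene Wars1 (-1.65), with none called higher. Of 7 genes for trafficking and turnover of the member proteins, 1 was called lower, a share near that of all tested genes, and 5 passed the test under 2-fold. That gene was Marchf1 (-1.07), whose product removes CD86 from the surface of antigen-presenting cells. Cmtm6, which stabilises PD-L1 at the surface, had a log2 fold change of -0.35, under 2-fold. Over these 5 lists 18 of the 51 tested genes were called lower and 5 higher, of which 2 and 3 had passed the filter through 1 group alone, beside the 10.1% and 12.8% of all tested genes given above. The lists, too, were chosen with earlier results of these data known, so this is no independent comparison.

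**Figure D4:**
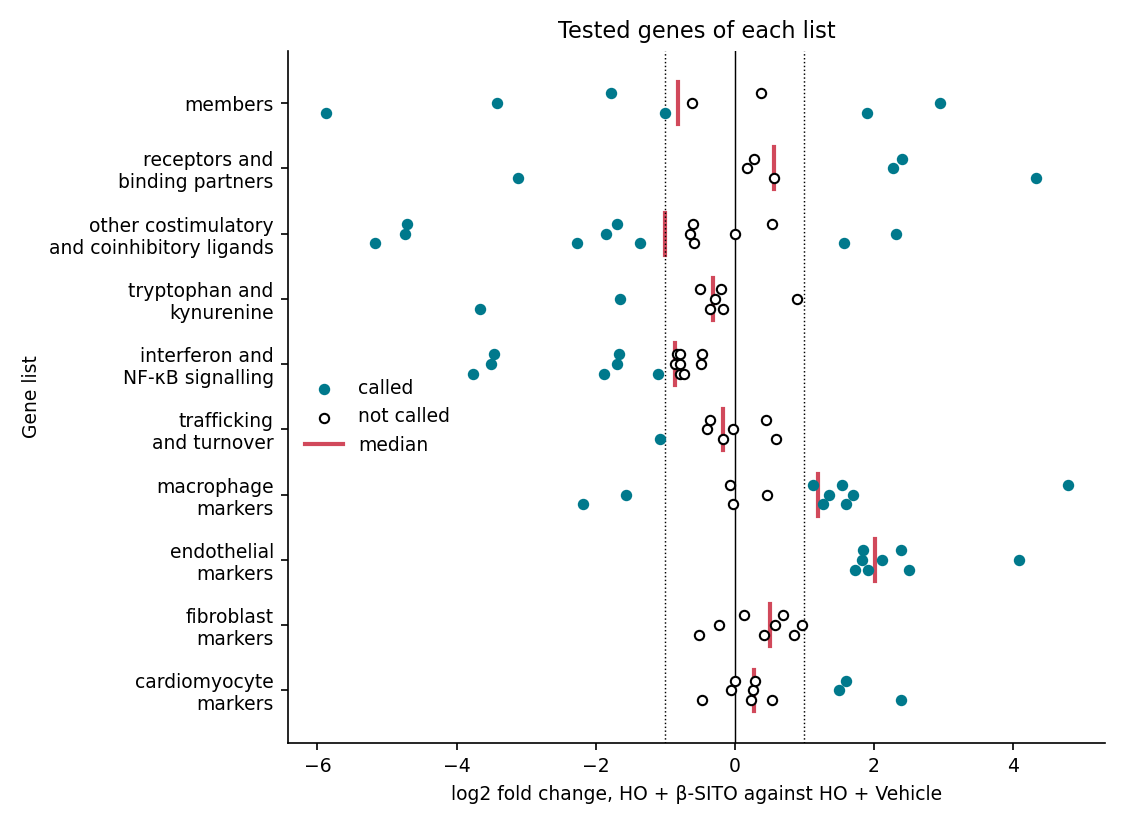
log2 fold change, HO + β-SITO against HO + Vehicle, of each tested gene on the lists; filled points were called, open points were not, red lines are list medians and dotted lines mark a 2-fold change. The members spread from -5.88 to 2.96, the genes of the interferon and NF-κB list, which also holds Hif1a and Myc, all lie below 0, and the endothelial markers all lie above 1.

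The genes whose levels over the 6 libraries lay nearest to those of each called member were found from log2 CPM centred on each gene's mean, as the root mean square difference. For Cd274 the nearest was Hp, which encodes haptoglobin, at a distance of 0.11, and for Icosl it was Aldh1a2, a retinoic acid synthesis gene, at 0.06. For Vsir it was Steap3, a ferrireductase gene, at 0.03, and for Havcr2 it was Fcna, which encodes ficolin A, at 0.08. Cd86 lay nearest to Ifi27l2a (0.06) and Cd80 to the proteasome gene Psmc2 (0.08). The difference between the groups makes up most of each profile, so this likeness is mainly a like fold change.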

How the data were processed

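RNA-seq was performed on 6 libraries of hypoxic NMCMs, 3 per group, with groups taken from the sample titles. The authors deposited raw counts per gene, without normalization. The submitters' processing notes name FastQC, HISAT2, featureCounts and GRCm39, with versions and counting options not given in the sources used here. For the libraries, the labels name an Illumina kit and the study's methods an ABclonal kit. From the deposited counts, genes were filtered with filterByExpr, normalized by TMM and compared with edgeR's quasi-likelihood test (R 4.3.3, edgeR 4.0.16) with the group as the only term. The p-values were adjusted by the Benjamini-Hochberg method over all 14799 tested genes, and a call needed both an adjusted p below 0.05 and a change beyond 2-fold. Standard errors were derived from the F statistics. An exact permutation test of 3 libraries against 3 cannot go below 0.1 and was not used. Libraries of a group differed by more than sampling noise. The scripts were tested on simulated data.

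The members and lists were chosen with earlier results of these data known. All members are named; of each list, the called genes with the largest changes and those that bind or neighbour a member are named, and others were picked after their values were seen. Exon lengths were taken by gene identifier from GENCODE vM21 (GRCm38), and promoters from RefSeq (GRCm38.p6). No coordinates were converted. A single list gene is not reported by name here. Alternatives were other normalizations, filters and tests (DESeq2 1.42.0, limma-voom with limma 3.58.1, glmTreat), no fold-change cutoff, removal of mitochondrially encoded genes and removal of each library in turn.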

Additional observations from a re-analysis of the deposited data

How the results depend on the processing

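The direction of each of the 8 tested members was kept under every alternative run, and of 120 comparisons with the main analysis 110 kept their side of the call, the other 10 all being of Cd80. Its log2 fold change of -1.003 became -0.86 with upper quartile normalization or library size only. It was -0.998 with DESeq2-style size factors, without a filter or with the stricter filter, and -0.997 without mitochondrially encoded genes, just short of 2-fold. Against a 2-fold change (glmTreat) it did not pass (adjusted p = 1). With each library left out it was between -1.10 and -0.89. Without the fold-change cutoff, 9892 of all genes, 34 pathway genes lower and 12 higher passed, against 3380, 18 and 5. Without a filter Ido1 was called lower in place of Cd80. Upper quartile normalization and library size only moved the median of all genes to 0.14, and Cd276 to 0.52 and 0.53. No paired analysis was possible because the groups share no replicate numbers (1 to 3 and 4 to 6). The depth limits Pdcd1lg2 and Ido1, with at most 5 counts in a library.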

Other observations

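Lists of markers for other cells gave the following values, beside 12.8% of all tested genes called higher and 10.1% called lower. Of 8 dendritic cell markers 3 were tested, and Clec9a was called higher, from 2 to 5 counts to 18 to 23 counts, having passed the filter through the HO + β-SITO libraries alone, while Cd209a and Siglech had 0 counts and Flt3 and Xcr1 at most 1. Of 8 T-cell markers 2 were tested, with Cd4, which passed the filter through the same group alone, called higher (log2 fold change 2.28) and Lck lower (-1.81). Of 5 B-cell markers 1 was tested, Cd22, called higher (1.70). Of 5 natural killer cell markers 1 was tested, Prf1, which did not pass (adjusted p = 0.0844). Of 5 neutrophil markers 1 was tested, Csf3r, called lower (-2.08). Of 5 smooth muscle markers 2 were called higher and none lower. Of 8 fibroblast markers none was called in either direction by edgeR's quasi-likelihood test, and 7 passed at an adjusted p under 0.05 with less than 2-fold. Dcn and Postn were lower among these 7 and the others higher. At an adjusted p under 0.05 with any fold, 33.0% of all tested genes were higher and 33.8% lower.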
